A study of Mus musculus with 10 samples.

Results

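The 10 genes described here, Smarca4, Smarca2, Smarcb1, Smarcc1, Smarcc2, Smarcd1, Smarcd2, Actl6a, Arid1a and Arid1b, encode subunits of the SWI/SNF (BAF) chromatin remodellers. They were chosen by symbol, and all 10 were found among the 24000 genes of the deposited tables. SWI/SNF complexes use ATP to slide and eject nucleosomes and so open enhancers and promoters. Each complex carries 1 of 2 alternative ATPases, Smarca4 (Brg1) or Smarca2 (Brm), with Smarcc and Smarcd proteins. The canonical form adds Smarcb1 and 1 of 2 alternative DNA-binding subunits, Arid1a or Arid1b, while the non-canonical form lacks Smarcb1. In breast epithelium Arid1a is known as a tumour suppressor that holds luminal identity in human breast cancer cells. NURF, the complex of Bptf, the gene knocked out in this series, belongs to another remodeller family built on the ISWI ATPases.

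Mammary epithelium of female mice was sorted by FACS before RNA-seq, and all mice had been given tamoxifen at 15 mg per kg in total. The 10 libraries formed 5 groups of 2: Bptf KO Bsecs (a sorted population that the labels do not spell out), Bptf KO luminal, Bptf WT luminal, Bptf KO myoepithelial (basal) and Bptf WT myoepithelial cells. The labels used here give no age, strain, allele or Cre driver, and do not say whether animals were pooled. For the KO luminal libraries 1 label names the knockout and another wild-type mice. The authors deposited 1 mean value per group and none per library, so there was 1 column a group, no difference below has a replicate check, and intervals cover counting error only. The 2 basal columns carry opposite genotype names in different tables. They are called smaller (2036681 counts) and larger (2359861 counts), and a difference between them is not attributed to Bptf. Whole reads recovered from the means summed to 3659403 in Bsecs, 3840462 in KO and 2729006 in WT luminal cells. Reads of Rn45s, a precursor of ribosomal RNA, made up 32.2% of the Bsecs total and 9.76% to 16.2% of the reads of the other columns. Bptf was at 680 normalised counts in Bsecs, 736 in KO luminal, 571 in WT luminal, 558 in the smaller basal and 750 in the larger basal column. It was thus no lower in the KO luminal than in the WT luminal column, and counts over whole genes do not check a deletion of single exons.

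Defining markers, taken as sums, fitted the luminal and basal names. The summed level of 10 luminal markers was 53740 normalised counts in KO and 58854 in WT luminal cells, against 4912 in the smaller basal and 4159 in the larger basal column. That of 10 basal markers was 1872 in KO and 1133 in WT luminal cells, against 46909 and 25974 in the smaller and larger basal columns. Single markers did not all part the lineages as clearly. The luminal marker Gata3 was at 667 in KO luminal, 272 in WT luminal, 530 in the smaller basal and 217 in the larger basal column. The basal marker Itga6 was at 1110, 881, 1570 and 1720 in the same order. Bsecs held part of both sets, summing to 19603 for luminal and 18860 for basal markers. Krt19 and Epcam, at 6449 and 6552, and Krt14, Krt17 and Krt5, at 8945, 5008 and 3307, gave most of these sums. The smooth muscle actin Acta2 was at 144 normalised counts. Of luminal markers, Bsecs had 0 reads of Kit, 1 of Elf5 and 119 of Prlr. Prlr had 10771 reads in KO and 16820 in WT luminal cells. Of basal markers, Bsecs had 1 read of Oxtr, 4 of Cnn1 and 19 of Myh11. Fibroblast markers summed to 395 in Bsecs, 990 in KO luminal, 815 in WT luminal, 416 in the smaller basal and 2170 in the larger basal column, and endothelial markers to 9.48, 2.17, 14.3, 50.5 and 233 in the same order. Dcn alone gave 983 of the fibroblast sum in KO and 774 in WT luminal cells. The other fibroblast markers had 0 to 5 reads in KO luminal and 0 to 22 in WT luminal cells. They had 2 to 65 in Bsecs, 3 to 81 in the smaller basal and 49 to 211 in the larger basal column. Leukocyte markers summed to 0.962 to 33.3 and adipocyte markers to 2.17 to 106 over the 5 columns. A normalised count is the recovered reads of a gene divided by a factor per column that puts the 5 columns on 1 common scale. In sorted bulk RNA, fewer cells of a type and less RNA per cell cannot be told apart.

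Promoters of 4 members are shown because the results turn on these pairs: the ATPases Smarca4 and Smarca2, whose ratio of Smarca2 to Smarca4 was lowest in Bsecs, and Smarcd1 and Smarcd2, which had the widest ranges over the columns. Each is the 250 bases before the annotated start, read 5′ to 3′ on the gene's strand, from RefSeq on GRCm38.p6. All 10 members matched that table. Capitals mark GGGCGG on either strand (the GC box that Sp1 proteins bind), overlapping matches included, which 32.7% of 32851 promoters held in the same window. The Smarca4 window is chr9:21615919-21616168 (plus strand), that of Smarca2 chr19:26604910-26605159 (plus), that of Smarcd1 chr15:99702037-99702286 (plus) and that of Smarcd2 chr11:106267633-106267882 (minus).
Smarca4: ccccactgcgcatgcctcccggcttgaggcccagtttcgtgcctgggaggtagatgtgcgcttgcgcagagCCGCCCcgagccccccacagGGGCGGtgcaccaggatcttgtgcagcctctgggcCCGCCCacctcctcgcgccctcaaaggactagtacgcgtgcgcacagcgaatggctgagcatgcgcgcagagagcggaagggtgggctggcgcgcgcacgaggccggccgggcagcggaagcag
Smarca2: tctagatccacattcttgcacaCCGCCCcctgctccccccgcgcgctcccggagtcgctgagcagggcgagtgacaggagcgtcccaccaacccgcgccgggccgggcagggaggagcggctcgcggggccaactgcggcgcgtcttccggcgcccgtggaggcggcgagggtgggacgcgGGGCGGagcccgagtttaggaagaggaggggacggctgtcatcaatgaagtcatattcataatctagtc
Smarcd1: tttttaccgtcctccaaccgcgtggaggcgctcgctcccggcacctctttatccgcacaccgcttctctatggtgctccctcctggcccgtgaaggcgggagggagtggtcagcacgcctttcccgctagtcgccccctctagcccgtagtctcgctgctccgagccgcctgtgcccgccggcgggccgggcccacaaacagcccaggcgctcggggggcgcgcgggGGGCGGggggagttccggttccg
Smarcd2: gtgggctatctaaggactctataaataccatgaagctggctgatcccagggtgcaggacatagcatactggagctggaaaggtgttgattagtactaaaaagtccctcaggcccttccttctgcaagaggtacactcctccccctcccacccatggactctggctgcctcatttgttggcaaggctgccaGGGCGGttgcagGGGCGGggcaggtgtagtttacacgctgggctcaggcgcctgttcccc

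The windows of Smarca4, Smarca2 and Smarcd1 held 25, 28 and 29 CG dinucleotides and no TATAAA on either strand. The Smarcd2 window held 4 CG dinucleotides and 1 TATAAA, a string found in 12.4% of all promoters of this length. The median promoter held 6 CG dinucleotides. The GC box was present in all 4 windows, with 3 matches in Smarca4, 2 in Smarca2, 1 in Smarcd1 and 2 in Smarcd2. Letters in a window describe the sequence and do not show that a factor binds there.

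Smarca4 was the more abundant of the 2 ATPases in every column, also per length. Its level was 820 normalised counts in Bsecs, 594 in KO luminal, 536 in WT luminal, 1161 in the smaller basal and 508 in the larger basal column. Per kilobase of its longest annotated coding transcript that is 128.6, 93.2, 84.1, 182 and 79.6. The smaller basal column stood highest and Bsecs next, while KO luminal, WT luminal and the larger basal column did not differ beyond counting error between neighbours in that order. Smarca2, the alternative ATPase, was at 50.6 in Bsecs, 90.4 in KO luminal, 107.1 in WT luminal, 223 in the smaller basal and 103 in the larger basal column, or 8.54 to 37.7 per kilobase. Bsecs were the lowest for Smarca2 and the smaller basal column the highest, with the other 3 columns between them and within counting error of each other.

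**Figure D1:**
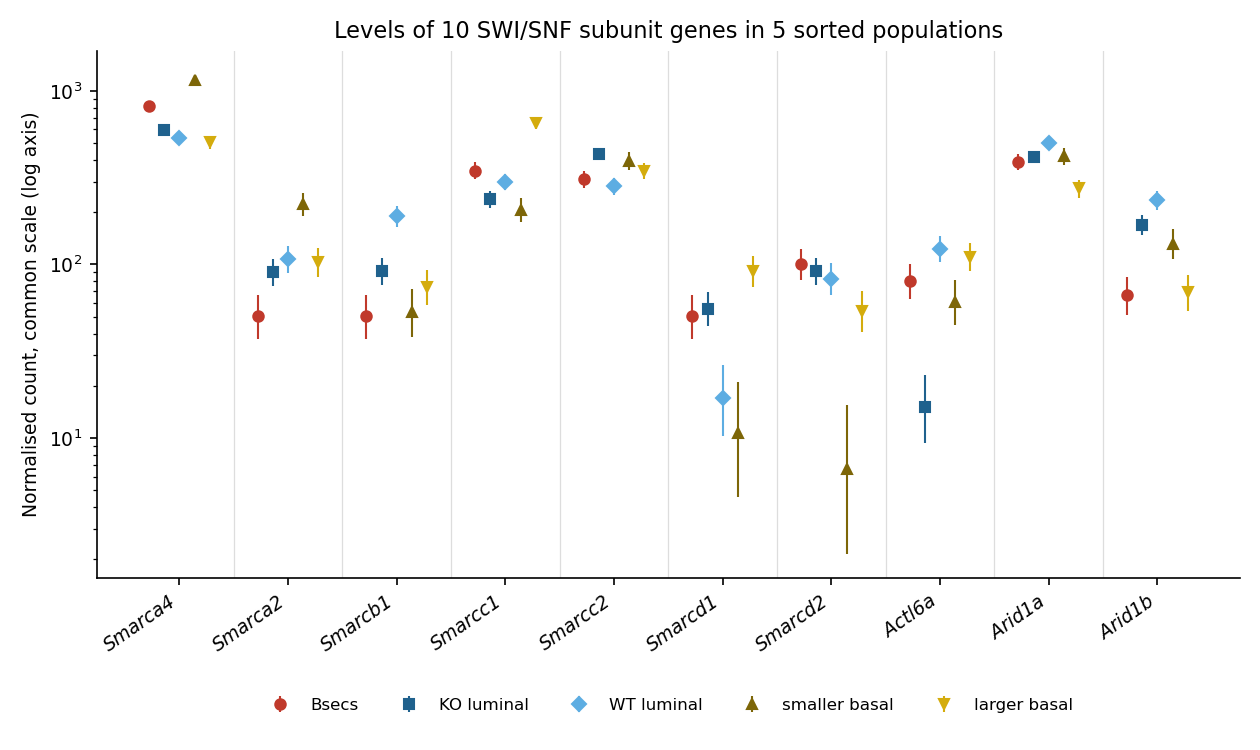
Normalised counts on the common scale (log axis) of the 10 subunit genes in Bsecs, KO luminal, WT luminal and the smaller and larger basal columns. Points are single columns and bars are exact 95% Poisson counting intervals. Smarcd2 and Smarcd1 are lowest in the smaller basal column and Actl6a in KO luminal cells, while Smarcc2 and Arid1a stay within a narrow band.

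Reads of Smarca2 per read of Smarca4 were fewest in Bsecs. A ratio of reads of 2 genes within a column does not depend on the scale between columns. Smarca2 had 48 reads for 778 of Smarca4 in Bsecs, a ratio of 0.0617 (95% counting interval 0.0451 to 0.0826). The ratio was 0.152 in KO luminal, 0.1997 in WT luminal, 0.192 in the smaller basal and 0.203 in the larger basal column. Bsecs thus had a ratio 2.46-fold below KO luminal cells (1.73 to 3.56), 3.24-fold below WT luminal cells (2.25 to 4.70), 3.12-fold below the smaller basal column (2.21 to 4.45) and 3.28-fold below the larger one (2.27 to 4.80). Between KO and WT luminal cells the ratio differed by 0.762-fold, with an interval of 0.575 to 1.01 that reaches 1. Between the smaller and the larger basal column it was 0.949-fold (0.722 to 1.25). How many other gene pairs shift as far was not counted. In the Bsecs comparisons, 38.6% to 46.3% of single genes with a mean of at least 50 were at least 2-fold apart. Bsecs also differed in their mix of luminal and basal markers and in their Rn45s share, given above, and the part of these in the ratio was not tested.

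The alternative DNA-binding subunits showed a like split. Arid1a was at 391 normalised counts in Bsecs, 418 in KO luminal, 503 in WT luminal, 421 in the smaller basal and 274 in the larger basal column, so its highest column was 1.84 times its lowest. Arid1b was at 66.4 in Bsecs, 169 in KO luminal, 234 in WT luminal, 131.5 in the smaller basal and 69.2 in the larger basal column. WT luminal cells were highest for both genes. For Arid1b, Bsecs and the larger basal column shared the lowest place within counting error, and each step above them exceeded it. Arid1b reads per Arid1a read numbered 0.1698 in Bsecs, 0.405 in KO luminal, 0.465 in WT luminal, 0.312 in the smaller basal and 0.253 in the larger basal column. The Bsecs ratio was lower than each of the others beyond counting error, by 2.38-fold against KO luminal (1.74 to 3.30), 2.74-fold against WT luminal (2.00 to 3.77), 1.84-fold against the smaller basal (1.28 to 2.66) and 1.49-fold against the larger basal column (1.01 to 2.20).

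**Figure D2:**
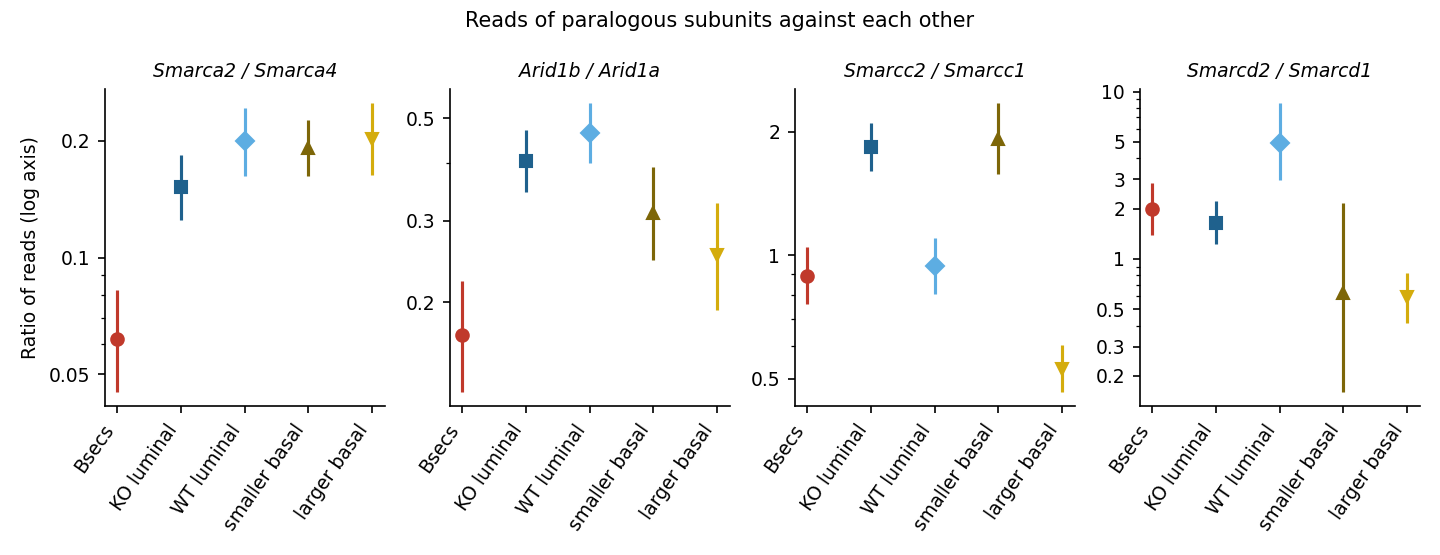
Ratio of recovered reads between paralogous subunits within a column (log axes, each panel with its own range) in Bsecs, KO luminal, WT luminal and the smaller and larger basal columns. Bars are exact 95% binomial counting intervals of the split of reads. Bsecs are lowest for Smarca2 over Smarca4 at 0.0617 and for Arid1b over Arid1a at 0.1698.

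Smarcc1 and Smarcc2 encode the paired scaffold proteins of the core. Smarcc2 was the steadiest member, at 310 normalised counts in Bsecs, 434 in KO luminal, 282 in WT luminal, 394 in the smaller basal and 346 in the larger basal column, and no neighbours in the order of these levels differed beyond counting error. Its highest and lowest columns did, KO luminal being 1.52-fold above WT luminal cells (1.32 to 1.74) on the scale of that comparison. Smarcc1 was at 348 in Bsecs, 237 in KO luminal, 299 in WT luminal, 206 in the smaller basal and 654 in the larger basal column. The larger basal column stood alone at the top for Smarcc1. There were 1.92 Smarcc2 reads per Smarcc1 read in the smaller basal and 0.529 in the larger basal column, 3.62-fold apart (2.85 to 4.60), and 1.83 in KO luminal against 0.943 in WT luminal cells, 1.94-fold apart (1.58 to 2.40). In Bsecs the ratio of 0.891 lay within counting error of WT luminal cells and below KO luminal cells. Smarcb1, the core subunit that grips the nucleosome and a tumour suppressor in children's rhabdoid tumours, was at 50.6 in Bsecs, 91.8 in KO luminal, 190 in WT luminal, 53.1 in the smaller basal and 74.04 in the larger basal column. WT luminal cells stood 2.07-fold above the next column for Smarcb1 (1.65 to 2.60) on the common scale. Each step between neighbours among the remaining columns was within counting error, but columns further apart did differ. On the scale of its own comparison, Bsecs were 1.76-fold below KO luminal cells (1.26 to 2.51) and 1.46-fold below the larger basal column (1.004 to 2.14).

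Smarcd1 and Smarcd2 encode alternative core subunits that contact transcription factors. Smarcd1 had 48 reads in Bsecs, 77 in KO luminal, 19 in WT luminal, 8 in the smaller basal and 95 in the larger basal column, and Smarcd2 had 95, 127, 93, 5 and 56 in the same order. The smaller basal column thus held few reads of either gene, at 10.6 normalised counts for Smarcd1 and 6.64 for Smarcd2, against 91.3 and 53.8 in the larger one. WT luminal cells were low for Smarcd1 alone, at 17.0 normalised counts beside 83.0 for Smarcd2. Smarcd2 reads per Smarcd1 read numbered 1.98 in Bsecs, 1.65 in KO luminal, 4.89 in WT luminal, 0.625 in the smaller basal and 0.589 in the larger basal column. The KO luminal ratio was 2.97-fold below that of WT luminal cells (1.64 to 5.55). The promoters printed above for these genes differ in CG content, at 29 and 4 CG dinucleotides. Smarcd3, the form known from muscle, had 0 reads in Bsecs, 5 in KO luminal, 3 in WT luminal, 12 in the smaller basal and 7 in the larger basal column.

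Actl6a, an actin-like subunit known to hold epidermal progenitors in an undifferentiated state in mice, was at 80.1 normalised counts in Bsecs, 15.2 in KO luminal, 123 in WT luminal, 61.1 in the smaller basal and 111 in the larger basal column. KO luminal cells were the lowest by 4.02-fold from the next column (2.35 to 7.10). The exons of Actl6a share 452 bases with Mrpl47 on the opposite strand in the GENCODE annotation, and no source used here says whether strand was counted, so reads of the shared stretch cannot be assigned. Mrpl47 had 18 reads in KO luminal cells and 29 in WT luminal cells, against 21 and 138 of Actl6a. Smarcd1 shares 287 and 183 exonic bases with predicted antisense genes, and its low counts carry the same limit.

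Over the 5 columns the members varied about as much as other genes. A total of 9 members had a mean level of at least 50 normalised counts, and Smarcd1 was at 45.03. The fold between the highest and lowest column, each plus 1, ran from 1.54 for Smarcc2 to 13.2 for Smarcd2, with a median of 3.59, beside a median of 3.51 and quartiles of 2.40 and 6.56 over 6465 genes with a mean of at least 50. That fold was at least 2 in 8 of 10 members and in 86.4% of all such genes. It was at least 4 in 4 of 10 members (Smarca2, Smarcd1, Smarcd2 and Actl6a) and in 42.9% of all such genes.

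**Figure D3:**
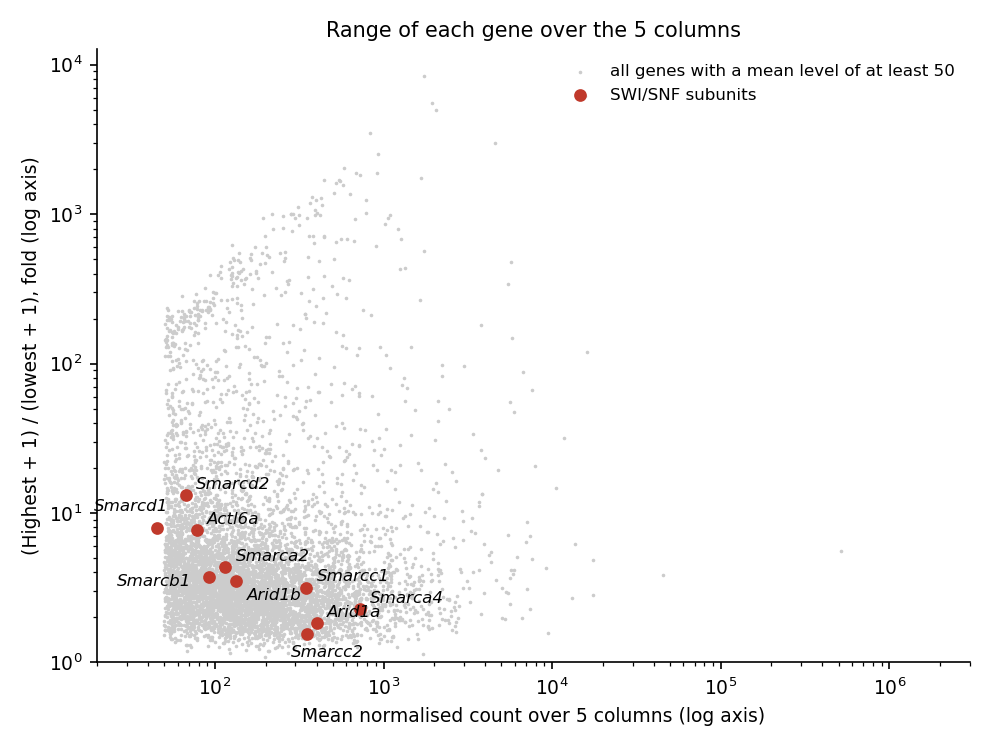
Fold between the highest and the lowest of the 5 columns, each plus 1 (log axis), against the mean normalised count (log axis) for genes with a mean of at least 50 (grey) and the 10 subunits (red). The subunits lie between 1.54 and 13.2, within the span of the other genes, Smarcd1 is plotted at a mean just under 50, and the 4 that reach 4 are among those of low level.

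KO luminal cells were set against WT luminal cells to ask what loss of Bptf does in the luminal lineage. The conflicting label of the KO luminal libraries and the Bptf level given above limit what the name KO carries here. Actl6a had 21 reads in KO and 138 in WT luminal cells and was 8.25-fold lower (5.19 to 13.7). Smarcb1, with 127 against 213 reads, was 2.11-fold lower (1.68 to 2.64). Smarcd1 was 3.23-fold higher (1.93 to 5.65) on 77 against 19 reads, and Smarcc2 1.52-fold higher (1.32 to 1.74). Smarca4 differed by 1.09-fold (0.980 to 1.21) and Smarcd2 by 1.09-fold (0.826 to 1.44), both within counting error. Of the 9 members with a mean value of at least 50 in this comparison, 0 were at least 2-fold higher and 2 were at least 2-fold lower, where 12.0% of such genes were higher, 11.8% lower and 23.9% either. Smarcd1, 3.23-fold higher, was below that mean and is not in these counts. The median log2 fold (values plus 1) was -0.29 over these 9 members and -0.28 over all 10, beside -0.003 over all genes with a mean of at least 50. The authors' deposited table gives unadjusted DESeq p-values, which were adjusted here by Benjamini-Hochberg over the 14736 genes with one. None (0 of 10 members) passed an adjusted p of 0.05, as 0.0882% of genes did. A single member (1 of 10) in the authors' deposited table had an unadjusted p under 0.05 (3.74% of genes), Actl6a at 0.0062, with a Benjamini-Hochberg adjusted p of 0.845. edgeR's exact test at a set dispersion of 0.04 called 2 of 10 members, Actl6a and Smarcd1, beside 17.5% of genes, and with 0.16 called 0, beside 1.53%. The summed level of basal markers also differed, at 1872 in KO and 1133 in WT luminal cells. Of the 10, 3 had an unadjusted p under 0.05 in the authors' deposited table: Krt14 with 298 against 54 reads, Krt17 with 474 against 87 and Krt5 with 42 against 1. Oxtr was at 0 reads in KO luminal cells, and the part of these markers in the differences was not tested.

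The smaller basal column was set against the larger one. Smarca4 was 2.32-fold higher (2.08 to 2.59) in the smaller column, on 874 against 528 reads, Smarca2 2.20-fold higher (1.71 to 2.83), Arid1b 1.93-fold (1.41 to 2.65) and Arid1a 1.56-fold (1.32 to 1.83). Smarcd1 was 8.48-fold lower (4.13 to 20.2), Smarcd2 8-fold lower (3.23 to 25.6), Smarcc1 3.13-fold lower (2.63 to 3.76) and Actl6a 1.79-fold lower (1.26 to 2.57). Smarcc2 at 1.16-fold (0.987 to 1.35) and Smarcb1 at 0.727-fold (0.483 to 1.08) were within counting error. Of the 8 members with a mean of at least 50, 2 were higher and 1 was lower by at least 2-fold, where 18.0% and 12.0% of genes were, and 29.9% either. Smarcd1 and Smarcd2 were below that mean and are not in these counts. Which members pass depends on the scale. With total counts, Smarca4 and Smarca2 were at log2 values of 0.94 and 0.86, under 2-fold, and Actl6a was at -1.11. With totals without Rn45s, Smarca2 was at 0.97 and Actl6a at -1.003. The median log2 fold was 0.42 over these 8 members but -0.12 over all 10, so its sign depends on Smarcd1 and Smarcd2, and it was 0.10 over all genes with a mean of at least 50. Once p-values in the authors' deposited table were adjusted the same way, none (0 of 10) passed (0.0274% of 14595 genes did), and Smarcd1 alone had an unadjusted p under 0.05, at 0.0489 (3.09% of genes). edgeR's exact test at a set dispersion of 0.04 called 4 members (Smarcd1, Smarcd2 and Smarcc1 lower, Smarca4 higher) of 10, beside 20.5% of genes, and with 0.16 it called 0, beside 2.39%. The summed level of 7 fibroblast markers was 416 in the smaller and 2170 in the larger column, and that of 5 endothelial markers 50.5 and 233. Their part in these differences was not tested.

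**Figure D4:**
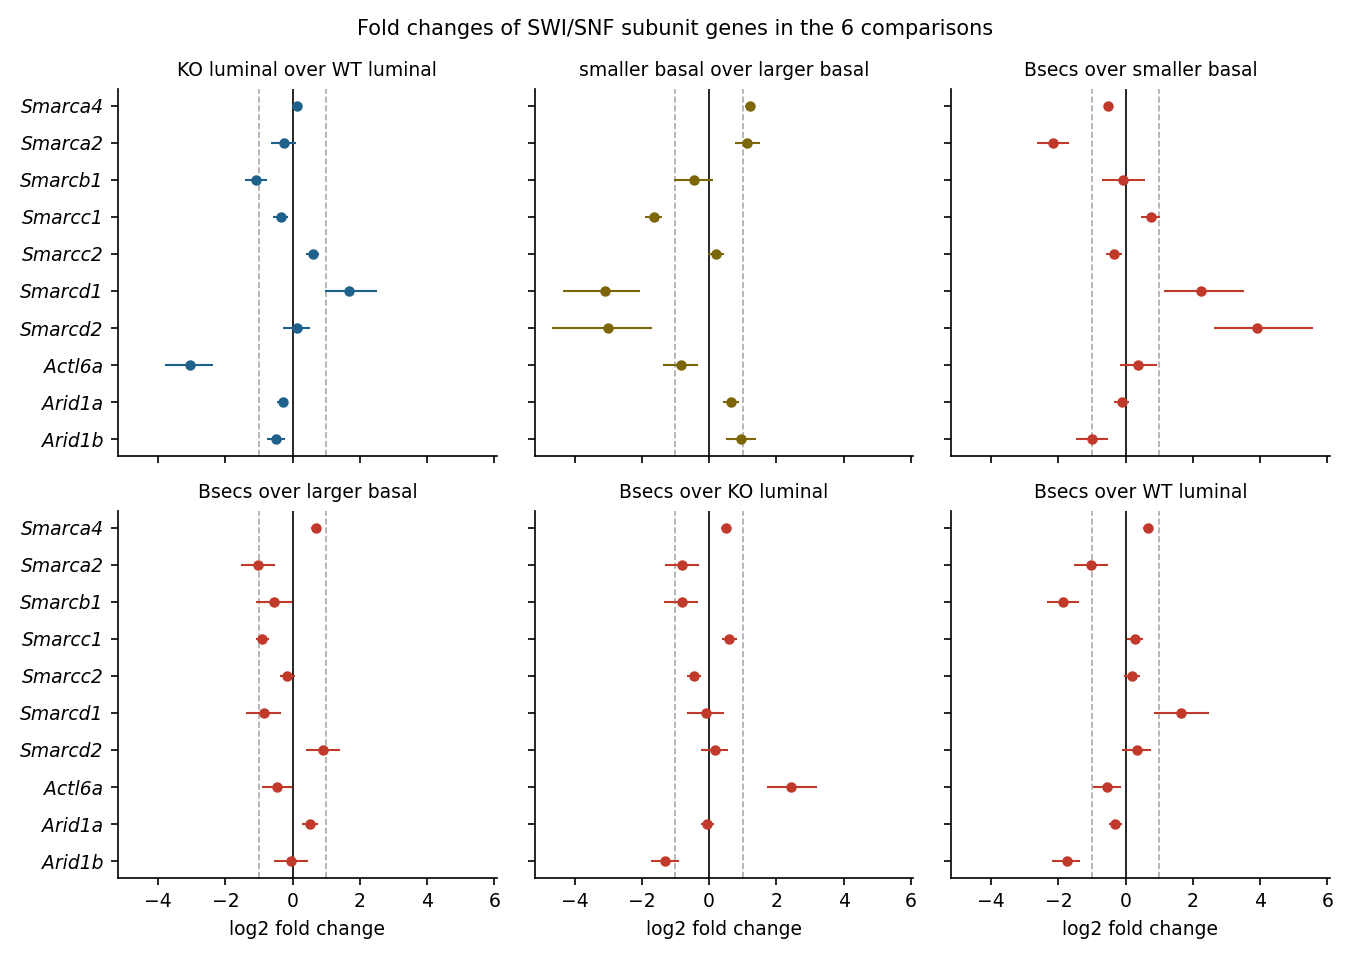
log2 fold changes of the 10 subunit genes in the 6 comparisons of the deposited tables, on each table's own scale. Bars are exact 95% binomial counting intervals, the solid line marks no difference and the dashed lines 2-fold. Smarca2 is on the lower side in the 4 Bsecs panels, and Actl6a is 8.25-fold lower in KO luminal than in WT luminal cells.

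Bsecs were compared with both basal columns to place them beside the basal lineage. Both comparisons use the same Bsecs reads. Smarca2 was lower in Bsecs than in either, 4.44-fold against the smaller column (3.21 to 6.26) and 2.03-fold against the larger one (1.43 to 2.91). Smarcd2 was higher than in either, 15.0-fold against the smaller column (6.19 to 47.1), on 95 against 5 reads, and 1.87-fold against the larger one (1.33 to 2.64), where the log2 value of 0.90 was 0.13 and within counting error with total counts as the scale. Smarca4, Smarcc1 and Smarcd1 lay between the basal columns. Smarca4 was 1.43-fold lower than the smaller (1.29 to 1.57) and 1.62-fold higher than the larger column (1.45 to 1.81), a difference whose log2 value was -0.0737 with total counts as the scale. Smarcc1 was 1.68-fold higher (1.38 to 2.04) and 1.87-fold lower (1.64 to 2.14), and Smarcd1 4.73-fold higher (2.22 to 11.6) and 1.80-fold lower (1.26 to 2.60), than the smaller and the larger column. Against the smaller column, 0 of 7 members with a mean of at least 50 were at least 2-fold higher (18.5% of genes) and 1 was lower (20.1%, and 38.6% either). Against the larger column, 0 of 10 were higher (21.5%) and 1 was lower (17.7%, and 39.2% either), Smarca2 in both. Against the smaller column the median log2 fold was -0.36 over the 7 members and -0.10 over all 10, beside 0.04 over all genes with a mean of at least 50. Against the larger column it was -0.30 over the 10 members, beside 0.08. After this adjustment of p-values in the authors' deposited tables, none (0 of 10 members) passed in either comparison (0.759% and 0.480% of genes did) and 0 had an unadjusted p under 0.05 (4.91% and 4.61%). The edgeR exact test with a dispersion of 0.16 called Smarcd2 against the smaller column (10.1% of genes) and 0 members against the larger one (8.51%). With 0.04 it called 3 of 10 against the smaller column (Smarcd2 and Smarcd1 higher, Smarca2 lower), beside 29.9% of genes, and 0 against the larger one, beside 28.8%. Fibroblast markers summed to 395 in Bsecs, against 416 in the smaller basal and 2170 in the larger basal column, and 6 of 7 were at least 2-fold lower in Bsecs than in the larger column. Endothelial markers summed to 9.48 in Bsecs, against 50.5 and 233, and 4 of 5 were at 0 reads in Bsecs. Their part in these differences was not tested.

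Against luminal cells, Bsecs were compared with the KO and the WT column. Arid1b was lower in Bsecs, 2.48-fold against KO luminal (1.87 to 3.32) and 3.38-fold against WT luminal cells (2.56 to 4.52). Smarcb1 was 1.76-fold (1.26 to 2.51) and 3.61-fold lower (2.63 to 5.04), and Smarca2 1.74-fold (1.24 to 2.48) and 2.03-fold lower (1.44 to 2.90). Smarca4 was 1.42-fold (1.29 to 1.57) and 1.59-fold higher (1.43 to 1.78), but at log2 values of -0.0097 and -0.0508 with total counts as the scale. Actl6a was 5.43-fold higher than in KO luminal cells (3.31 to 9.27) and 1.48-fold lower than in WT luminal cells (1.11 to 1.98). Against KO luminal cells 1 of 10 members with a mean of at least 50 was at least 2-fold higher (Actl6a, 23.5% of genes) and 1 lower (Arid1b, 21.3%), with 44.7% of genes either. Against WT luminal cells 0 of 9 were higher (25.4%) and 3 were lower (Smarca2, Smarcb1 and Arid1b, 20.9%), with 46.3% of genes either. Smarcd1 was below that mean and is not in the latter counts. It was 3.11-fold higher in Bsecs than in WT luminal cells (1.79 to 5.60), on 48 against 19 reads. Against KO luminal cells the median log2 fold was -0.07 over the 10 members. Against WT luminal cells it was -0.30 over the 9 members and -0.05 over all 10. Over all genes with a mean of at least 50 it was 0.13 in both. After the same adjustment of p-values from the authors' deposited tables, none (0 of 10) passed in either (0.0405% and 0.210% of genes did), and 0 had an unadjusted p under 0.05 (3.82% and 4.29%). An edgeR exact test with a dispersion of 0.16 called 0 members in both, beside 11.1% and 13.8% of genes. With 0.04 it called 2 of 10 (Actl6a higher, Arid1b lower) against KO luminal cells, beside 34.8% of genes. Against WT luminal cells it called 3 of 10 (Arid1b and Smarcb1 lower, Smarcd1 higher), beside 37% of genes.

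Across lineages, Smarcb1, Smarcd2 and Arid1b had both luminal columns above both basal columns on the common scale, 3 of 10 members, beside 27.0% of 6465 genes. The nearest luminal and basal columns were 1.54-fold apart for Smarcd2 (1.09 to 2.19) and 1.29-fold for Arid1b (1.01 to 1.64). For Smarcb1 they were 1.24-fold apart (0.927 to 1.67), within counting error. No member had both luminal columns below both basal columns, beside 30.6% of genes, but Smarca2 did with totals without Rn45s as the scale, and Smarca2 and Smarca4 with total counts. Bsecs lay below the other 4 columns for Smarca2, Smarcb1 and Arid1b, 3 of 10 members beside 18.4% of genes, and above them for Smarcd2, 1 of 10 beside 23.6%. The Smarcb1 and Smarcd2 values of Bsecs differed from the nearest column by 1.05-fold and 1.09-fold, within counting error, as did that of Arid1b at 1.04-fold. For Smarca2 the nearest column, KO luminal, was 1.79-fold higher (1.27 to 2.55). With totals without Rn45s as the scale, Smarcd2 no longer stood above the others and Smarcc2 joined those below. With total counts, Bsecs lay below the others for 6 members, Smarca4 and Arid1a among them. That scale moved the log2 fold of every gene in the Bsecs comparisons by -0.50 to -0.77. The shares of all genes for these patterns were not computed on the other scales. With TMM factors Smarcb1 no longer stood below, and Arid1a joined those with luminal columns above basal ones. With the smaller basal column left out, 5 members had luminal columns above the basal one and 2 below it, beside 79.7% of genes either way.

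Of 18 other SWI/SNF subunits, 0 passed the same adjustment of the deposited p-values in any of the 6 comparisons. Among those with a mean of at least 50, 1 of 12 was at least 2-fold higher and 0 lower in KO than in WT luminal cells, and 2 of 9 were higher and 1 lower in the smaller than in the larger basal column. Of all such genes 12.0% were higher and 11.8% lower in the first comparison, and 18.0% and 12.0% in the second. In Bsecs 1 of 10 was higher and 2 lower than in the smaller basal, 2 of 10 higher and 1 lower than in the larger basal, 3 of 12 higher and 3 lower than in the KO luminal, and 2 of 10 higher and 1 lower than in the WT luminal column. Of all such genes 18.5% were higher and 20.1% lower against the smaller basal, and 21.5% and 17.7% against the larger basal column. Against KO luminal it was 23.5% and 21.3%, and against WT luminal 25.4% and 20.9%. Dpf2, a histone-reading subunit of canonical complexes, was 3.80-fold higher (2.97 to 4.89) in the smaller than in the larger basal column and 4.45-fold higher (3.52 to 5.67) in Bsecs than in the larger one. Bcl7b was 7.46-fold higher in the smaller than in the larger basal column (5.36 to 10.6), on 229 against 43 reads. Gltscr1l, a subunit of the non-canonical complexes, was lower in Bsecs than in each other column, 7.16-fold against KO luminal (5.06 to 10.4), 4.46-fold against WT luminal (3.10 to 6.59), 2.61-fold against the smaller basal (1.72 to 4.03) and 2.86-fold against the larger basal column (1.94 to 4.31). Smarce1, a DNA-bending core subunit, was higher in Bsecs by 5.28-fold against KO luminal (3.84 to 7.38) and 3.33-fold against WT luminal cells (2.49 to 4.50). Smarce1 has an annotated processed pseudogene, so its reads may be split. The PBAF subunits Pbrm1 and Arid2 were at 271 and 214 normalised counts in Bsecs and at 208 to 452 elsewhere. Actl6b and Dpf3, forms known from neurons and muscle, had 0 to 2 reads in every column. Pbrm1, Arid2, Smarcd3, Actl6b, Dpf3 and, of the ISWI list, Smarca1 did not reach the naming rule and were named after their values were seen. Among those with a mean of at least 50, the median log2 fold of the other subunits was 0.16 for KO over WT luminal, -0.12 for the smaller over the larger basal column, 0.05 and -0.18 for Bsecs over these basal columns, and -0.16 and 0.38 for Bsecs over KO and WT luminal cells.

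NURF and ISWI subunits, the family of Bptf, had summed levels of 3539 normalised counts in Bsecs, 2746 in KO luminal, 3108 in WT luminal, 3562 in the smaller basal and 3920 in the larger basal column. The 10 BAF members summed to 2266, 2198, 2374, 2668 and 2284 in the same order. The highest BAF sum was 1.21 times the lowest and the highest NURF and ISWI sum 1.43 times its lowest. Of 13 NURF and ISWI genes, 0 passed adjustment in any comparison. At a mean of at least 50, 1 of 11 was at least 2-fold higher and 0 lower in KO than in WT luminal cells, and 1 of 10 higher and 0 lower in the smaller than in the larger basal column. In Bsecs 1 of 10 was higher and 1 lower than in the smaller basal, 1 of 10 higher and 2 lower than in the larger basal, 4 of 12 higher and 2 lower than in the KO luminal, and 3 of 11 higher and 1 lower than in the WT luminal column. The shares of all genes are those given above for each comparison, such as 23.5% higher and 21.3% lower in Bsecs than in KO luminal cells. Their median log2 folds, over genes with a mean of at least 50, were -0.29 for KO over WT luminal and -0.13 for the smaller over the larger basal column. For Bsecs they were -0.21 and -0.33 over the smaller and larger basal columns and 0.55 and 0.31 over KO and WT luminal cells. Of the ISWI ATPases, Smarca5 was higher in Bsecs than in all 4 other columns by 2.06-fold to 4.91-fold, and its counting interval against the larger basal column was 1.67 to 2.55. Total counts as the scale moved every log2 fold of Bsecs over the larger basal column by -0.77. The Bsecs folds of Smarca5, and of Dpf2 and Smarce1 above, were not computed on that scale. Smarca1, the ATPase of NURF, had 0 reads in Bsecs, KO luminal and WT luminal cells, 12 in the smaller basal and 35 in the larger basal column. NuRD and CHD subunits summed to 3710 in Bsecs and 2491 to 2781 elsewhere, and INO80 and SRCAP family genes to 1206 in Bsecs and 1066 to 1353 elsewhere.

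The genes closest in pattern to Smarca4 over the 5 columns were S100a10, Brox and Stau1, with root mean square differences of centred log2 levels of 0.06, 0.06 and 0.06 among 6304 genes. S100a10 was at 1266 normalised counts in Bsecs, 945 in KO luminal, 912 in WT luminal, 1825 in the smaller basal and 860 in the larger basal column. Those closest to Smarca2 were Gcc1, Tmem66 and Cobll1, at 0.10, 0.12 and 0.15. Cobll1 was at 245 in Bsecs, 492 in KO luminal, 592 in WT luminal, 934 in the smaller basal and 545 in the larger basal column. Likeness over 5 columns describes these libraries and carries no test.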

How the data were processed

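RNA-seq of 10 libraries was deposited as 6 comparison tables, each with 1 normalised mean column per group. Reads were aligned with STAR to mm9 and compared with DESeq, per the submitters' processing notes. The values the authors deposited are signal (read counts divided by DESeq size factors), with a fold ratio and unadjusted p-values. Adjusted p-values were computed here, by Benjamini-Hochberg over all genes with a deposited p. Values in every column were whole multiples of 1 step within 0.01 reads, and the counts so recovered showed 5 distinct columns and no column per library. These counts were put on 1 scale by median of ratios over 9791 genes. Fold changes used each table's own scale. Fold intervals are exact 95% binomial and level intervals exact Poisson. They cover counting error only, since there was 1 column per group. PCR copies could not be told from separate molecules, and where reads are copies the intervals are too narrow. Whether libraries of a group came from separate animals is not given, and any p reflects only these samples. The planned replicated test had no library columns to use. The authors' deposited p-values, adjusted here with a limit of 0.05, are given in its place. Every column was whole multiples of 1 step, so these p-values appear to rest on 1 count column per group. They then carry no measured spread between libraries and are not a replicated test. The alternative was edgeR 4.0.16's exact test with an assumed dispersion of 0.04 or 0.16, which no replicate measured. Counts of genes past 2-fold used a mean of at least 50, and log2 folds values plus 1. Lengths and overlaps came from GENCODE M21 on GRCm38, and promoters from RefSeq on GRCm38.p6. No coordinates were moved between builds. Of 106 list entries, 1 symbol was not matched, and 27 rows with date-converted or repeated symbols were not used for naming. All members were named, and of other lists at most 4 genes per comparison past 2-fold or the deposited p. Members and lists were chosen with earlier results of these data known. The scripts were tested on simulated counts. Python 3.11.15, scipy 1.17.1 and R 4.3.3 were used.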

Additional observations from a re-analysis of the deposited data

How the results depend on the processing

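With the deposited p-values adjusted here, 0 members passed in each comparison. With edgeR at a dispersion of 0.04 it was 2 of 10 for KO over WT luminal (17.5% of all genes), 4 for smaller over larger basal (20.5%), and for Bsecs 3 over smaller basal (29.9%), 2 over KO luminal (34.8%) and 3 over WT luminal (37%). At 0.16 it was 1 for Bsecs over smaller basal (10.1%). Counts past 2-fold follow, with the share of all genes under the same setting. For KO over WT luminal the 2 became 1 at 3-fold (8.29%) and 1 at a mean of at least 100 (19.5%). For the basal pair the 3 became 6 at 1.5-fold (53.1%), 1 at 3-fold (12.2%) and 5 with no filter (56.4%). It became 2 with total counts (31.1%), where Smarca4 and Smarca2 were under 2-fold. For Bsecs over smaller basal the 1 became 2 with totals without Rn45s (39.2%), 3 with total counts (43.3%), 3 at 1.5-fold (59%) and 3 with no filter (59.1%). For Bsecs over larger basal the 1 became 3 with totals without Rn45s (40.5%), 5 with total counts (48.9%), 5 at 1.5-fold (60%), 0 at 3-fold (21.9%) and 0 at a mean of at least 100 (35.4%). For Bsecs over KO luminal the 2 became 4 with totals without Rn45s (44.1%), 5 at 1.5-fold (65.3%), 1 at 3-fold (24.7%) and 1 at a mean of at least 100 (42%). For Bsecs over WT luminal the 3 became 5 with total counts (50.4%).

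Total counts moved the log2 fold of all genes in the Bsecs comparisons by -0.50 to -0.77. With them the members' median was -0.59 against smaller basal, -1.07 against larger basal, -0.59 against KO luminal and -0.78 against WT luminal, and without Rn45s -0.38 against WT luminal. With total counts the sign turned for Smarca4 in Bsecs (-0.0737 against larger basal, -0.0097 against KO luminal, -0.0508 against WT luminal), Arid1a against larger basal (-0.25) and Smarcc1 against WT luminal (-0.44, and -0.0464 without Rn45s). Members with luminal and basal columns apart numbered 3, and 6 without KO luminal (76.6% of all genes), 7 without smaller basal (79.7%) and 7 without larger basal (81.2%), alternatives chosen after seeing the data. The cause of these moves, beyond fewer columns or another scale, was not tested. No paired analysis was possible because the tables hold 1 mean column per group, and leaving out single libraries could not be run for the same reason. Depth limits Smarcd1 and Smarcd2 most, at 8 and 5 reads in the smaller basal column.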

Other observations

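Paralogs of the NuRD complex, which couples a remodeller to histone deacetylases, also differed in balance in Bsecs. These pairs were chosen after their values were seen and carry no test. Gatad2b had 50 reads for 722 of Gatad2a in Bsecs, a ratio of 0.0693, against 0.310 in KO luminal, 0.275 in WT luminal, 0.608 in the smaller basal and 0.677 in the larger basal column. The ratio was 4.47-fold lower than in KO luminal cells (95% counting interval 3.19 to 6.36) and 3.97-fold lower than in WT luminal cells (2.80 to 5.69). It was 8.77-fold lower than in the smaller basal column (6.09 to 12.7) and 9.77-fold lower than in the larger one (6.94 to 13.9). Mta3 had 31 reads for 431 of Mta2 in Bsecs, a ratio of 0.0719, against 1.02 in KO luminal, 0.798 in WT luminal, 0.0345 in the smaller basal and 0.210 in the larger basal column. That ratio was 14.2-fold lower than in KO luminal cells (9.33 to 22.2), 11.1-fold lower than in WT luminal cells (7.17 to 17.5) and 2.92-fold lower than in the larger basal column (1.77 to 4.88). Against the smaller basal column it was 2.09 times as high, on 31 against 8 reads of Mta3, within counting error.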
